A study of Mus musculus with 18 samples.

Results

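The genes described here encode the machinery of oxidative phosphorylation: subunits of the respiratory complexes I to IV and of ATP synthase (complex V), together with the Nduf-named assembly factors of complex I. They were taken by name, as all protein-coding rows of the count table whose symbol starts with Nduf, Cox4 to Cox8, Uqcr, Atp5 or mt-, or is Sdha, Sdhb, Sdhc or Sdhd. The rule found 111 rows, which are 109 distinct genes because Ndufb4 stands on 3 identical rows, among 55487 genes and 21936 protein-coding genes in the table. Of the 109 genes, 96 lie in the nuclear genome and 13 in the mitochondrial genome. The nuclear members comprise 37 subunits of complex I, 8 assembly factors of complex I, 4 subunits of complex II, 8 of complex III, 21 of complex IV and 18 of complex V. Ndufa4 and Ndufa4l2 are placed with complex IV, where the Ndufa4 protein is now known to sit in spite of its name. The mitochondrial genome encodes 7 members of complex I, 1 of complex III, 3 of complex IV and 2 of complex V, and none of complex II.

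Complexes I to IV of the inner mitochondrial membrane pass electrons from NADH and succinate to oxygen. Complexes I, III and IV pump protons across the membrane as they do so. ATP synthase lets the protons flow back and makes ATP. Because subunits come from nuclear and mitochondrial genes, the 2 genomes must be expressed together. Photoreceptors, which make up most retinal cells in mice, pack their inner segments with mitochondria, while microglia, the resident immune cells, can switch between oxidative and glycolytic metabolism.

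Retinas of mice were dissociated and sorted by flow cytometry into live cells with CD11b on their surface, a marker of microglia, and live cells without it, called retina here. The mice were either Bmal1f/f controls, which carry floxed copies of the clock gene Bmal1 (Arntl), or Bmal1-mg/-mg mice, in which the labels say that microglia lack it. From every fraction 4 libraries came from controls and 5 from knockouts, which makes 18. The labels give neither the driver of the deletion nor age, sex or time of day, and do not say that each library is 1 animal, so that p-values measure the spread between these libraries only.

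Totals were 32277156 to 47563119 counts per library, so that 3 counts equal 0.0631 to 0.0929 CPM (counts scaled to library size). Levels below are CPM on 1 scale for all 18 libraries. Arntl, the targeted gene, stood at 21.8, 15.5, 9.90 and 27.0 CPM in control microglia and at 8.52, 2.10, 19.8, 24.1 and 13.6 CPM in knockout microglia. The groups overlapped (log2 difference -0.44 ± 0.62, SE, adjusted p = 0.999, edgeR), and the count spans the whole gene, while the deleted exons are not given. In retina Arntl had 112.02, 137, 120 and 94.6 CPM in the control libraries, and 94.7, 80.0, 80.6, 85.4 and 124 CPM in the knockout libraries, again with overlap (-0.35 ± 0.17, adjusted p = 0.392). Marker genes of microglia separated the fractions the way they are labelled. The summed level of 16 microglial markers was 69596 to 78260 CPM in control microglia and 14.1 to 18.9 CPM in control retina, where Aif1, Fcrls, Siglech and Gpr34 were at 0. The summed level of 21 rod markers was 190180 to 278510 CPM in control retina and still 9762 to 14209 CPM in control microglia, so microglial libraries also held rod transcripts.

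The 5 promoter stretches below are shown because the results below name the genes of the first 4, and Atp5l as an example of a member that holds an E-box. They are the 150 bases before the RefSeq start (GRCm38.p6), outside the GENCODE gene except for 1 base in Uqcrh, and capitals mark matches to the motifs named after them. Ndufb11 is a subunit of complex I, Sdhd anchors complex II in the membrane, Uqcrh is the hinge protein of complex III, and Atp5g3 and Atp5l encode membrane subunits of ATP synthase.
Ndufb11, chrX:20617620-20617769, minus strand: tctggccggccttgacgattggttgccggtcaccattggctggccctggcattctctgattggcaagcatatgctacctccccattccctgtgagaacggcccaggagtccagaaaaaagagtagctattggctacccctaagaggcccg
Sdhd, chr9:50603850-50603999, minus strand: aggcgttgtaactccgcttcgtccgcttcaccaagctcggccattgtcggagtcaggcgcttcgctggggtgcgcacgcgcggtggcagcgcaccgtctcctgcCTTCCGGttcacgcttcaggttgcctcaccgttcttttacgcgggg
Uqcrh, chr4:116075071-116075220, minus strand: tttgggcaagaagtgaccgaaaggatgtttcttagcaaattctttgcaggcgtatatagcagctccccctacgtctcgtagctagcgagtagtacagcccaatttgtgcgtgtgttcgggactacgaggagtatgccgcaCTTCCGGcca
Atp5g3, chr2:73911327-73911476, minus strand: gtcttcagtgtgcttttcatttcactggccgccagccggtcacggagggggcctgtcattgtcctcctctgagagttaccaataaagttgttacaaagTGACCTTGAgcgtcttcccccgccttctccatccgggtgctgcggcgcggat
Atp5l, chr9:44920743-44920892, minus strand: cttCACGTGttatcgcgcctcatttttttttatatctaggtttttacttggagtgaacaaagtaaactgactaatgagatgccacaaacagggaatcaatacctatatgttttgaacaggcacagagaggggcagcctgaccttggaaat
The capitals in Sdhd and Uqcrh are a core recognised by ETS factors, a family to which the mitochondrial regulator GABP belongs. Those in Atp5g3 are a half-site of oestrogen-related receptors, and those in Atp5l are the E-box bound by BMAL1 with CLOCK. The stretch of Ndufb11 held none of the motifs searched.

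RefSeq windows of 300 bases, from 250 before to 50 after a start, were found for 76 of the 96 nuclear members and for 17492 protein-coding genes. Both strands were searched. The letters CGCATGCG, a core of the regulator NRF1, were in the windows of 11 of the 76 members (14.5%) and in 2.77% of all protein-coding genes. The ETS core CCGGAAG was in 19 members (25.0%) against 12.95% of all, and the YY1 core AAGATGGCG was in 8 members (10.5%) against 2.14%. The oestrogen-related receptor half-site TCAAGGTCA was in 2 members, Sdhd and Atp5g3 (2.63%), against 0.377% of all. The E-box CACGTG was in 6 members (7.89%), namely Ndufa7, Ndufv1, Atp5g1, Atp5g3, Atp5l and Atp5pb, against 8.91% of all. The first 4 of these motifs were thus held by a larger share of the members than of all genes, and the E-box was not. A match of letters is a description and not a binding site.

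Retina devoted about a 2-fold larger share of its messages to these genes than microglia did, in both genomes. Nuclear members took 0.639 ± 0.045% of protein-coding counts in control microglia (SD, n = 4) and 1.33 ± 0.064% in control retina (n = 4). The single control microglia libraries held 0.594 to 0.688% and the control retina libraries 1.28 to 1.42%, so that the fractions were well apart. Mitochondrial members took 0.276 ± 0.051% of protein-coding counts in control microglia and 0.582 ± 0.143% in control retina, with ranges of 0.233 to 0.350% and 0.458 to 0.785%. The ratio of mitochondrial to nuclear member counts was therefore alike in both fractions, at 0.433 ± 0.076 in control microglia and 0.436 ± 0.084 in control retina. It was 0.486 ± 0.043 in knockout microglia (n = 5) and 0.403 ± 0.078 in knockout retina (n = 5), and all 4 ranges overlapped. In bulk fractions, fewer cells of a type and less RNA per cell cannot be told apart.

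**Figure D1:**
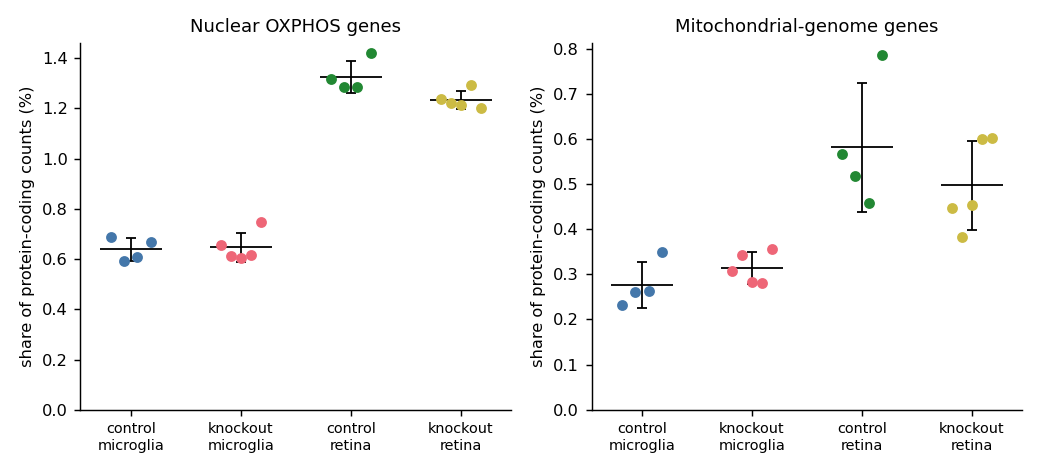
Share of protein-coding counts from nuclear (left) and mitochondrial-genome (right) members in each library; points are libraries, horizontal lines group means and bars SD. Every retina library lies above every microglia library in both panels, and knockout retina (1.20 to 1.29% for nuclear members) reaches into the control range (1.28 to 1.42%).

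A few members made up much of the total. Atp5b, the catalytic beta subunit of ATP synthase, gave 12.4 ± 1.18% of nuclear member counts in control microglia and 22.4 ± 1.52% in control retina. Per kilobase of exon, Atp5b ranked first among nuclear members in control retina at 671 ± 75.4 CPM per kb, ahead of Atp5a1, the alpha subunit, at 357 ± 34.9. In control microglia Atp5a1 (216 ± 25.5 CPM per kb), Cox6a1 (206 ± 13.6) and Atp5b (193 ± 18.4) led, and these neighbours did not differ beyond their spread. Among mitochondrial genes mt-Cytb, the catalytic protein of complex III, ranked first in both fractions at 792 ± 156 CPM per kb in control microglia and 1955 ± 338 in control retina. The next was mt-Co1, the catalytic subunit of complex IV, in control microglia (555 ± 90.4 CPM per kb), and mt-Nd1 of complex I in control retina (862 ± 201), where mt-Co1 followed at 738 ± 120 within the spread. Accordingly mt-Co1 was 30.2 ± 0.373% of mitochondrial member counts in control microglia and 20.9 ± 1.14% in control retina. Some mitochondrial genes may share reads with nuclear copies, as described below. The ranks and shares of mitochondrial genes, and the ratios to nuclear counts above, were not corrected for this.

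The first comparison set control microglia against control retina. Of 109 members 104 passed the filter on low counts, and 69 were lower and 3 higher in microglia (edgeR, adjusted p under 0.05). Over all 15188 genes tested, 17.4% were lower and 22.8% higher. The members' median log2 difference was -0.91 for nuclear and -0.96 for mitochondrial genes, against 0.02 over all genes. Groups did not overlap for 72 members lower in microglia and for 4 higher, where 20.7% and 28.8% of all genes did not overlap in those directions. A member counted there could be low in microglia and still pass the filter through retina, or the reverse.

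Complex I was lower nearly throughout. Of its 37 nuclear subunits 28 were lower and none higher, with a median of -0.92. Ndufb11 stood at 47.3, 38.4, 36.9 and 45.1 CPM in control microglia and at 136, 146, 135 and 178 CPM in control retina. That is 3.65-fold lower in microglia, without overlap (log2 difference -1.87 ± 0.16, SE, adjusted p = 5.4e-05, edgeR). Ndufv1, which carries the site where NADH is oxidised, and Ndufa10, an accessory subunit, were 3.50-fold and 3.48-fold lower. Among the assembly factors, which are not part of the finished complex, 3 of 8 were lower and 1, Ndufaf7, was higher. Ndufaf7, a methyltransferase needed to assemble the complex, stood at 47.3, 41.4, 49.8 and 30.9 CPM in control microglia and at 22.2, 18.5, 23.2 and 15.6 CPM in control retina (log2 difference 1.04 ± 0.24, adjusted p = 0.0087). Its call was lost in 1 of 18 alternative settings, the removal of the length and GC trend (0.48, adjusted p = 0.192).

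Complex II, succinate dehydrogenase, which is also an enzyme of the tricarboxylic acid cycle and has no mitochondrially encoded subunit, did not follow the others. Its median log2 difference was -0.05, with 2 subunits higher and 2 lower. Sdhd stood at 177, 121, 149 and 137 CPM in control microglia and at 90.5, 72.9, 90.7 and 81.5 CPM in control retina, 1.69-fold higher in microglia (log2 difference 0.76 ± 0.16, adjusted p = 0.0062). Sdhb, the iron-sulphur subunit, stood at 148, 127, 115 and 122 CPM in control microglia and at 79.9, 79.7, 103 and 98.2 CPM in control retina (0.46 ± 0.15, adjusted p = 0.042). For both genes every microglia library lay above every retina library. Sdha, the flavoprotein that oxidises succinate, was 1.47-fold lower at 476, 509, 478 and 494 CPM against 598, 781, 770 and 636 CPM. Sdhc, the other membrane anchor, was 2.14-fold lower. The call of Sdhd was lost in 1 of 18 alternative settings, the removal of the length and GC trend (adjusted p = 0.0527). The call of Sdhb was lost with its sign kept in 7 of 18 alternative settings. Among them were leaving out control microglia library 1, 2 or 4 or control retina library 1 or 2 (adjusted p 0.061 to 0.092). In 1 more setting, the removal of the length and GC trend, its sign reversed (log2 difference -0.24, where the median of all genes was -0.47). Whether complex II differs from the other complexes was not tested, as it is a choice of 4 genes made on these data.

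In complex III 6 of 8 nuclear subunits were lower and none higher, with a median of -0.81. In complex IV 8 of 17 tested nuclear members were lower and none higher, with a median of -0.85. Ndufa4 had 66.9, 47.2, 41.0 and 72.6 CPM in control microglia and 286, 301, 213 and 317 CPM in control retina. It was 5.05-fold lower in microglia without overlap (log2 difference -2.34 ± 0.23, adjusted p = 0.00013, edgeR). Cox5a, a matrix-side subunit, and Cox6c, a small membrane subunit, were also lower, by log2 differences of -1.46 ± 0.16 and -1.53 ± 0.19. In contrast Cox6a1, a housekeeping subunit of high level in both fractions, differed by -0.24 ± 0.11 and was not called (adjusted p = 0.136). In complex V 14 of 17 were lower and none higher, with a median of -0.98. Atp5b stood at 775, 738, 836 and 917 CPM in control microglia and at 2636, 3240.1, 2954 and 2538 CPM in control retina, 3.59-fold lower (-1.84 ± 0.13, adjusted p = 2.3e-05).

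**Figure D2:**
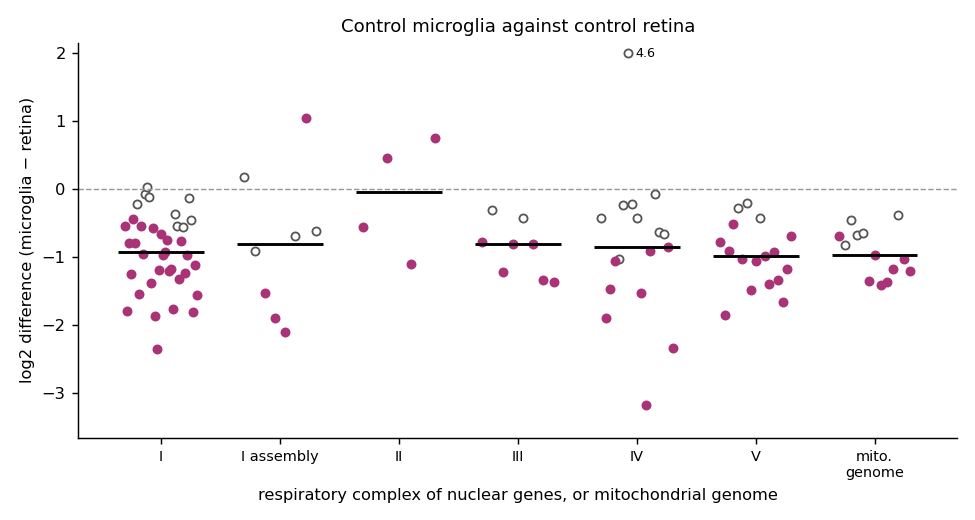
Log2 difference between control microglia and control retina for each tested member, by complex of the nuclear genes and for the mitochondrial genome; filled points are called at an adjusted p under 0.05, bars are medians, and the value of 1 point beyond the axis is printed. Most points lie below 0, except in complex II, where 2 of 4 lie above.

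Rod transcripts in the microglia libraries were not removed, and their part in the members' levels was not tested. Replacing the scaling by the size factors of DESeq2 left 67 lower and 3 higher members, and 55 lower and 3 higher remained with the replicate number in the model. After removal of the dependence on exon length and GC in every library, the median of all genes moved to -0.47, and the nuclear members' median relative to it was -0.79 and the mitochondrial -0.42.

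Several subunits exist as a common form and a tissue form, and some of these families were used in different proportions by the 2 fractions. Others were not: Cox6b2, the testis form of subunit 6b, made up 1.12 ± 0.41% of its family in control microglia and 1.31 ± 0.31% in control retina, and Cox8a and Cox7b made up nearly all of theirs in both. Cox4i2, the lung-type form of subunit 4, made up 3.91 ± 2.01% of COX4 messages per kilobase in control microglia (SD, n = 4) and 10.03 ± 2.71% in control retina, with ranges of 1.66 to 6.31% and 6.16 to 12.2% that overlap slightly. Cox4i2 itself was 3.70-fold lower in microglia (adjusted p = 0.013, edgeR). Cox6a2, the heart and muscle form of subunit 6a, stood at 4.34, 3.05, 4.61 and 1.90 CPM in control microglia and at 0.536, 0, 0 and 0 CPM in control retina. No microglia library overlapped, but the difference was not called (4.60 ± 1.77, adjusted p = 0.0725), and the level was low. Knockout microglia held 2.30 to 5.83 CPM of Cox6a2, and all 5 knockout retina libraries had 0. Cox7a1, the muscle form of subunit 7a, was under 0.4 CPM in control microglia and 0.661 to 1.94 CPM in control retina (adjusted p = 0.044). Ndufa4l2, a relative of Ndufa4 induced by hypoxia, had 0 counts in all 4 control microglia libraries. The testis-type Cox7b2 and Cox8c had no count in any library.

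The membrane ring of ATP synthase is built from subunit c, whose mature protein is the same from Atp5g1, Atp5g2 and Atp5g3. Atp5g3 gave 52.0 ± 3.24% of the subunit c messages per kilobase in control microglia (47.6 to 55.0%) and 67.9 ± 3.24% in control retina (64.5 to 71.0%). Atp5g2 gave 32.4 ± 3.06% and 17.4 ± 2.48%, and neither range overlapped between fractions. Atp5g3 was 2.79-fold lower in microglia, whereas Atp5g2 differed by -0.21 ± 0.18 and was not called (adjusted p = 0.389). A shift of this kind was also present in subunit 7a, where Cox7a2l, which joins complexes III and IV, gave 52.6 ± 4.31% of messages in control microglia and 37.3 ± 7.11% in control retina.

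All 13 mitochondrial genes had a negative difference in microglia and 8 were called lower. The largest were mt-Nd2 (-1.41 ± 0.27), mt-Nd3 (-1.36 ± 0.45) and mt-Cytb (-1.34 ± 0.19). mt-Cytb stood at 739, 864, 863 and 1159 CPM in control microglia and at 1982, 2284, 1914 and 2763.5 CPM in control retina, without overlap. The 3 complex IV genes mt-Co1, mt-Co2 and mt-Co3 differed by -0.45 ± 0.17, -0.68 ± 0.24 and -0.64 ± 0.22 and were not called (adjusted p 0.051 to 0.063). mt-Co1 overlapped between fractions, at 708 to 1046 CPM against 1008 to 1415 CPM.

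Part of the mitochondrial genome has near-identical copies in the nuclear genome, and how reads were shared between them is not given in the sources used here. The 100-base windows of each gene were sought in the annotated transcripts of other genes. Over 97% were found there for mt-Nd3, mt-Nd4l, mt-Co2, mt-Co3 and mt-Atp6. The share was 60.8% for mt-Nd4, 30.8% for mt-Co1, 3.20% for mt-Nd2 and 0% for mt-Nd1, mt-Nd5, mt-Nd6, mt-Cytb and mt-Atp8. Copies outside annotated transcripts were not searched, so 0% does not mean that a gene is unique in the genome. Most copies lie side by side at chr1:24611535-24616197 and are annotated as pseudogenes. Over the 18 libraries, mt-Co3 had 56354 counts and its copy Gm28437 51489, and mt-Co2 had 23991 against 22185 for Gm28661. How many of the counts at one locus came from the other cannot be told from these files. In the comparison of fractions the 5 genes with over 97% of windows elsewhere had a median of -0.68, and the other 8, of which mt-Nd4, mt-Co1 and mt-Nd2 have partial copies, of -1.10. Adding the counts of the copies, a step chosen after seeing the data, moved these medians to -0.68 and -1.09 and added mt-Co3 to the genes called lower (adjusted p = 0.037). mt-Atp8 overlaps mt-Atp6 in sequence, mt-Nd4l overlaps mt-Nd4, and mt-Nd6 lies opposite the end of mt-Nd5, so that reads there could not be assigned with certainty.

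**Figure D3:**
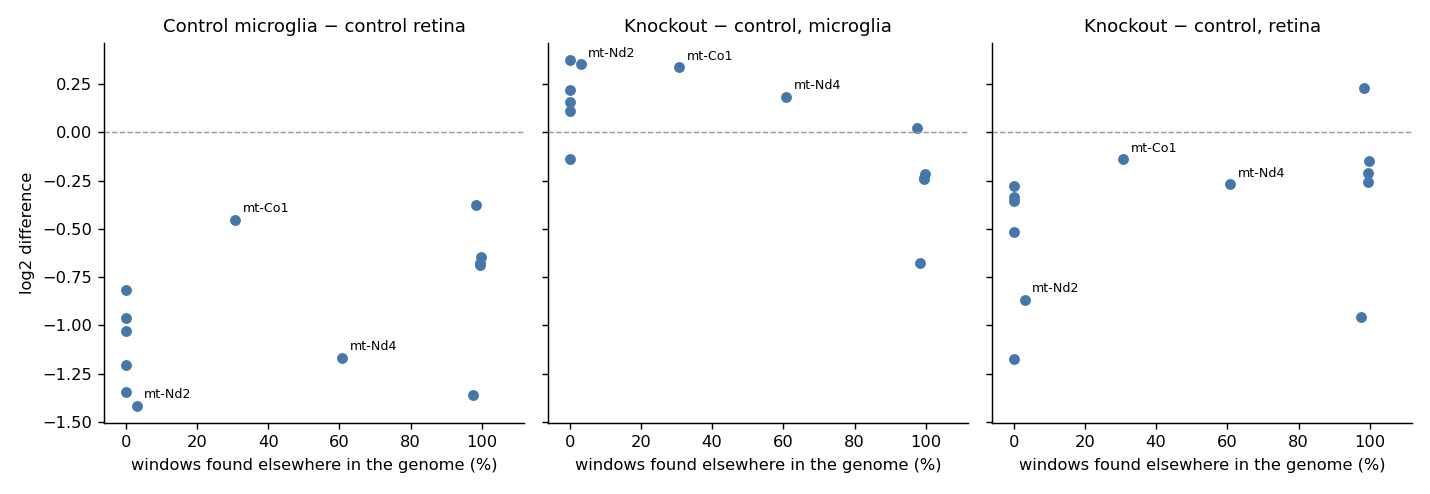
Log2 difference of each of the 13 mitochondrial-genome genes (y axis) against the percentage of its 100-base windows found elsewhere (x axis), in 3 comparisons. Elsewhere means in an annotated transcript of another gene, although the axis names the genome. Among knockout microglia the 5 genes over 90% run from -0.67 to 0.02 and 7 of the 8 others lie above 0.

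The second comparison set knockout against control microglia. None of the 103 members tested was called, in either direction, by edgeR, DESeq2 or limma voom. Over all 14835 genes 0.101% were called higher and 0.0135% lower. Only 3 members were under an unadjusted p of 0.05, where 5.76% of all genes were. The median log2 difference was 0.07 for nuclear and 0.11 for mitochondrial members, against -0.01 over all genes, and 59 members were positive and 44 negative. The standard errors of the members ran from 0.092 to 1.41 with a median of 0.22. In simulated counts this test recovered 34% of genes changed by a log2 difference of 1 and 100% of those changed by 2. The simulation gave every gene the same dispersion (extra spread between libraries) and changed only genes above a set level. These rates therefore need not hold for the members. Which differences could be detected among the members, given their own standard errors, was not tested.

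Sdha had the smallest p. It stood at 476, 509, 478 and 494 CPM in control microglia and at 410, 349, 417, 463 and 363 CPM in knockout microglia. All 5 knockout libraries lay below the 4 controls, but the difference of -0.29 ± 0.10 was not called (unadjusted p = 0.014, adjusted p = 0.612, edgeR). Groups failed to overlap for 1.89% of all genes in the higher and 1.41% in the lower direction, so 1 member each way is near that share. Ndufv1 of complex I differed by 0.36 ± 0.20. Among the members of smallest p in the other complexes were, in complex II, Sdhc (0.13), in complex III Uqcrc1, a core protein (0.26 ± 0.12), in complex IV Cox4i1 (0.19 ± 0.11) and Cox7c (0.35 ± 0.22), and in complex V Atp5b (0.21 ± 0.10) and Atp5g1 (0.32 ± 0.16). None of these had an adjusted p under 0.61.

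Among mitochondrial genes, mt-Co1 stood at 708, 836, 841 and 1046 CPM in control microglia and at 999, 1215.5, 1028, 1012 and 1179 CPM in the knockout libraries (0.34 ± 0.12, adjusted p = 0.649). mt-Nd1 stood at 365, 417, 424 and 534 CPM against 581, 672, 506, 467 and 599 CPM (0.38 ± 0.14, adjusted p = 0.700). In both, 1 control library reached into the knockout range. Of the 8 genes with under 90% of windows elsewhere, 7 were positive with a median of 0.20, and of the 5 others 4 were negative with a median of -0.24. After the counts of nuclear copies were added, the 5 genes had a median of -0.26. Whether the copies account for the opposite signs was not tested. Atp5l, whose E-box is shown above, differed by 0.17 ± 0.22 and was not called (adjusted p = 0.999, edgeR). The 6 members with an E-box in their promoter window had differences from -0.02 to 0.36 with a median of 0.25, and the 67 others with a window had a median of 0.07. In knockout against control retina these medians were -0.25 for the 6 and -0.30 for 68 others. Whether members with an E-box differ from the others was not tested.

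**Figure D4:**
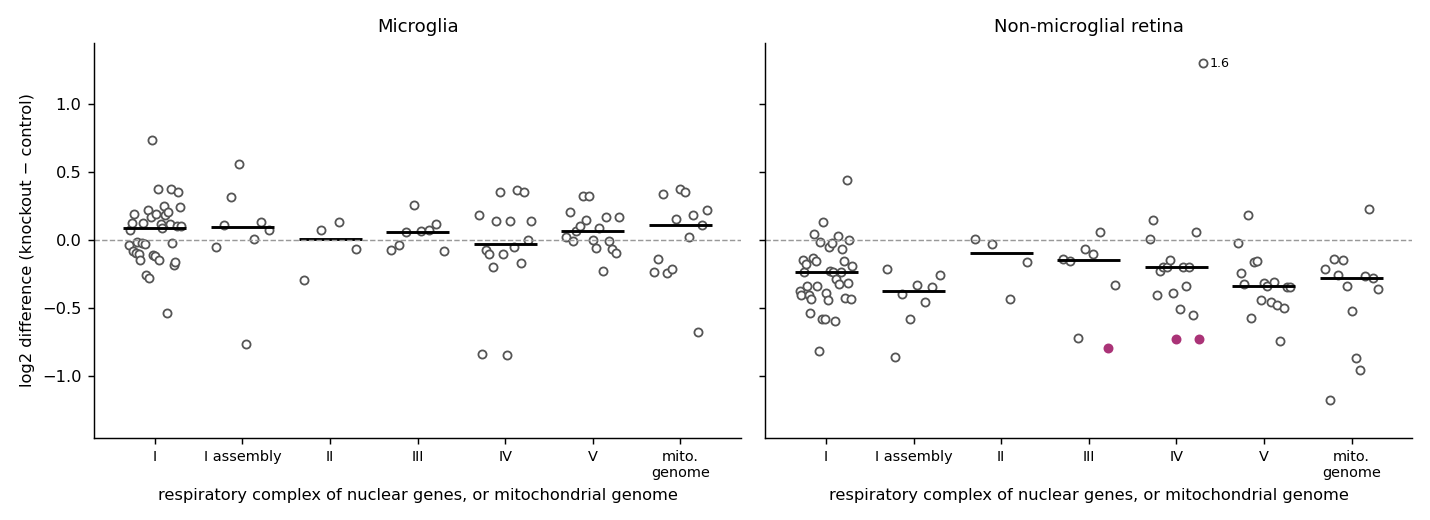
Log2 difference between knockout and control libraries for each tested member in microglia (left) and retina (right), by complex; filled points are called at an adjusted p under 0.05, bars are medians, and the value of 1 point beyond the axis is printed. Points scatter around 0 in microglia, while 92 of 104 lie below 0 in retina.

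The third comparison set the non-microglial retina of knockout mice against that of controls, where the cells themselves are not labelled as lacking Bmal1. It shares the 4 control retina libraries with the comparison of fractions. Of 104 members tested, 3 were called lower and none higher (edgeR). Over all 15332 genes 0.326% were lower and 1.34% higher. The direction was common: 92 of 104 members were negative, the median was -0.30 for nuclear and -0.28 for mitochondrial genes, and that of all genes was 0.00. Under an unadjusted p of 0.05 there were 33 members, all lower, against 14.2% of all genes in either direction. Groups did not overlap for 18 members, all lower, where 2.69% of all genes were without overlap in that direction and 6.02% in the other. The standard errors of the members ran from 0.081 to 1.87 with a median of 0.17.

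Ndufa4, at chr6:11900292-11907497 on the minus strand, stood at 286, 301, 213 and 317 CPM in control retina and at 173, 155, 155, 188 and 198 CPM in knockout retina. Every knockout library lay below every control (log2 difference -0.73 ± 0.14, SE, adjusted p = 0.039, edgeR). Cox6c, at chr15:35925886-35938246 on the minus strand, stood at 120, 98.3, 94.8 and 129 CPM against 71.7, 59.4, 64.7, 73.8 and 75.1 CPM. Its groups were as far apart (-0.72 ± 0.14, adjusted p = 0.038). Uqcrh, at chr4:116066965-116075071 on the minus strand, stood at 86.5, 106, 77.6 and 102 CPM against 58.0, 51.1, 42.3, 58.5 and 66.2 CPM. It also showed no overlap (-0.79 ± 0.16, adjusted p = 0.048). In microglia the same genes differed by 0.12 to 0.14 and were not called. Their values by library are in the plot of 6 members.

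**Figure D5:**
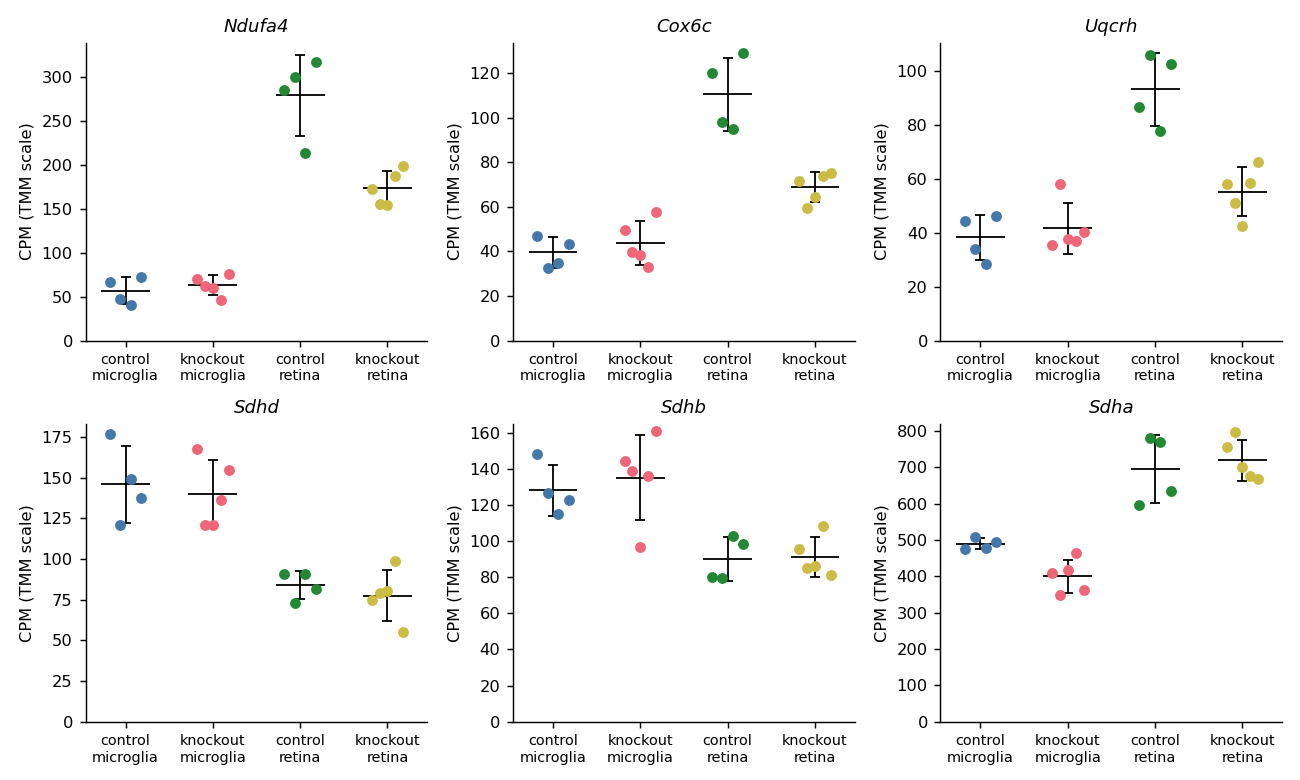
CPM of 6 members in every library of the 4 groups; points are libraries, horizontal lines means and bars SD. Ndufa4, Cox6c and Uqcrh are lower in every knockout retina library than in every control retina library, and Sdhd and Sdhb are higher in every control microglia library than in every control retina library.

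These 3 calls were not stable. Leaving out control retina library 1 or 4, or knockout retina library 1, 2, 3 or 4, left no call, while leaving out control retina library 2 kept Cox6c and leaving out library 3 kept Ndufa4. Leaving out knockout library 5 kept all 3. Their log2 differences stayed between -0.87 and -0.62 when single libraries were left out, with adjusted p from 0.027 to 0.117. No filter on low counts, a fit over all 18 libraries, or the rod level as a covariate left 0 calls, whereas DESeq2 called 13 members lower. DESeq2 called 1184 genes over the whole table in either direction, where the main edgeR fit called 255. Without control retina library 4 the nuclear median was -0.20 and the mitochondrial -0.16. With the rod level in the model no gene of the whole table was called, and the nuclear median was -0.36. The authors' deposited retina table has 5 of 103 members lower and none higher at an adjusted p under 0.05. Over all its genes, 744 of 13330 rows were under 0.05 in either direction. In their microglia table no member was under 0.05, where 76 of 12841 rows were.

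By complex, the median was -0.24 in complex I (33 of 37 subunits negative, 12 under an unadjusted p of 0.05) and -0.37 for its assembly factors (8 of 8 negative). Ndufb11 (-0.58 ± 0.14, adjusted p = 0.0805) and Ndufb1-ps (-0.82 ± 0.20, adjusted p = 0.088), listed as protein-coding in spite of its name, had the smallest p of complex I. Complex II had a median of -0.09, and Sdha differed by 0.01 ± 0.10. Sdhc was the exception there, at 172, 193, 164 and 171 CPM in control retina and 142, 111.9, 127, 143 and 141 CPM in the knockout libraries, without overlap but not called (-0.43 ± 0.11, adjusted p = 0.087). Complex III had a median of -0.15, with Uqcrb (-0.72 ± 0.19, adjusted p = 0.0997) after Uqcrh. Complex IV had a median of -0.20, and complex V of -0.34, where 16 of 17 were negative and 11 under an unadjusted p of 0.05. Atp5g3 stood at 226, 208, 210 and 200 CPM against 173, 133, 143, 176 and 173 CPM (-0.44 ± 0.12, adjusted p = 0.0997), and Atp5j2 differed by -0.46 ± 0.13 (adjusted p = 0.112). Atp5l stood at 49.2, 38.5, 35.8 and 38.1 CPM against 31.1, 25.6, 29.0, 33.5 and 30.04 CPM, without overlap but not called (-0.48 ± 0.16, adjusted p = 0.193). The 12 members above 0 included Ndufs7 (0.44 ± 0.21), Cox8a (0.06 ± 0.12) and Cox4i1 (0.01 ± 0.13), none of them called.

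Of the mitochondrial genes, 12 of 13 were negative in knockout retina and none was called. mt-Nd2 stood at 148, 141, 91.6 and 178 CPM in control retina and at 73.9, 39.1, 54.1, 88.5 and 138 CPM in knockout retina, with overlap through knockout library 5 and control library 3 (-0.87 ± 0.35, adjusted p = 0.290). mt-Atp8 had no overlap but lay at 0.172 to 0.375 CPM in knockouts, near the worth of a few counts (-1.17 ± 0.42, adjusted p = 0.228). The mitochondrial ribosomal RNA mt-Rnr2, which is no member, moved the same way (-0.71 ± 0.24, adjusted p = 0.186). mt-Co1 differed by -0.14 ± 0.14 and mt-Co3 by -0.15 ± 0.20.

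Cell type markers also differed in retina. Rod genes went the way of the members, and those of cones, bipolar cells and Mueller glia went the opposite way. All 21 rod genes were lower in knockout retina, 6 of them called, with a median log2 difference of -0.55, and their summed level was 150020 to 186110 CPM there against 190180 to 278510 CPM in control retina. All 12 cone genes and 13 of 14 bipolar cell genes were higher, with medians of 1.67 and 1.89, 4 and 7 of them called. All 11 Mueller glia genes were higher too, with a median of 0.66 and none called. The part of cell types in the members' difference was not tested. The summed rod levels of the 2 genotypes did not overlap, so the rod covariate above cannot separate rod level from genotype. The nuclear members are short, with a median exon length of 1587 bases against 3853 over all genes, and across the 91 nuclear members the difference in retina rose with GC content (Spearman rho 0.38, a description over genes, 0.19 over all genes). With length the rho was -0.03 across these members. The longer of them had a median of -0.33 and the shorter of -0.25, where all genes over that length stood at 0.04 and all genes of the shorter lengths at -0.12. When the trend on length and GC content was removed, the median of all genes moved to -0.32. The nuclear members' median relative to it was then -0.09 and the mitochondrial 0.46, so that the common fall of the members does not hold under this processing. On its shifted scale 22 members were called lower, among 1397 genes called over the whole table in either direction.

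The difference between the 2 knockout effects was tested as an interaction over all 18 libraries. None of 105 members was called (edgeR), where 0.0772% of all 18128 genes were called higher in that contrast and 0.392% lower. An unadjusted p under 0.05 was reached by 21 members, against 12.5% of all genes. DESeq2 called 10 members among 1074 genes called over the whole table, where edgeR called 85 genes. The median difference between the effects, microglia less retina, was 0.28 for nuclear and 0.44 for mitochondrial members, against -0.13 for all genes. Atp5g3 (0.73 ± 0.22, adjusted p = 0.167) and Cox6c (0.82 ± 0.25, adjusted p = 0.169) had the smallest p. The 2 knockout comparisons share no library, but the labels do not say whether they share animals. The main interaction fit held no term for animal. Of 102 members tested in both, 53 (52.0%) were positive in microglia and negative in retina, against 25.4% of 12764 genes, and 6 had the opposite pattern. In the main edgeR fit no single member was thus shown to differ between the 2 knockout effects, while DESeq2 made the calls given above. After the length and GC trend was removed, 21 members were called, among 1193 genes called over the whole table.

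Other genes of mitochondrial energy metabolism were followed in lists drawn up with the members. Cytochrome c (Cycs), which carries electrons from complex III to IV, stood at 18.8 ± 1.81 CPM in control microglia and 39.3 ± 8.89 CPM in control retina (log2 difference -1.10 ± 0.23, adjusted p = 0.0054, edgeR). Cyc1, the cytochrome c1 of complex III, was also lower in microglia (-0.66 ± 0.13). Neither passed the test in a knockout comparison, with Cycs at 0.31 ± 0.23 in microglia and -0.46 ± 0.22 in retina. Ppargc1a, a coactivator that raises mitochondrial gene expression, had 7.20 ± 5.29 CPM in control microglia and 86.0 ± 15.7 CPM in control retina (-3.62 ± 1.21, adjusted p = 0.044, edgeR). Tfam, which packs mitochondrial DNA and helps start its transcription, had 17.7 ± 2.79 and 12.2 ± 3.98 CPM there and was not called.

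Of 77 mitochondrial ribosomal protein genes tested, 65 were positive in knockout microglia (median 0.20) and 18 in knockout retina (median -0.24), and none passed the test in either. In the comparison of fractions 20 of them were lower in microglia and 2 higher. Of 20 genes of the tricarboxylic acid cycle, 10 were lower and 3 higher in microglia, and none passed the test in a knockout comparison, where their medians were 0.08 in microglia and 0.01 in retina. Of 15 regulators of mitochondrial biogenesis tested in retina, 1 was called, Esrrb, an oestrogen-related receptor, at 142 CPM in controls and 89.6 CPM in knockouts (-0.71 ± 0.14, adjusted p = 0.047). No gene was called in knockout microglia or knockout retina among the assembly factors of complexes II to V, the non-Nduf assembly factors of complex I, the genes of mitochondrial DNA upkeep, those of fission, fusion and mitophagy, or the nucleotide carriers and porins. In the last list Vdac1, an outer membrane channel, was 371 and 507 CPM in retina (0.41 ± 0.09, adjusted p = 0.063), and Slc25a5, an ATP and ADP exchanger, was 748 and 577 CPM (-0.41 ± 0.10, adjusted p = 0.079).

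Members also moved together between libraries of 1 group. Knockout microglia library 5 was the highest of its group for 55 of 92 nuclear members, with a median deviation of 0.32 on the log2 scale from the group, and control microglia library 1 was highest for 45 of 92. Control retina library 4 was the highest of its group for all 13 mitochondrial genes and library 3 the lowest for 12 of 13. Over all 18128 genes tested, no library was the highest of its group for more than 30.3% of genes.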

How the data were processed

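Gene counts of 18 libraries were used as deposited by the authors. Per the submitters' processing notes, DRAGEN, STAR 2.7.9a, Subread with featureCounts, edgeR, limma and the mouse build GRCm38 were used; their order and the strand setting of counting are not given in the sources used here. Per the file headers, the authors' deposited comparison tables hold log2 fold changes, p-values with adjusted p-values, and a likelihood ratio score per gene that was not used. Of 55774 lines, 287 that repeated an identifier were dropped, and 2540 names were restored by identifier from GENCODE release 21 for mouse.

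Each comparison was fitted on its own libraries with edgeR 4.0.16 (TMM scaling, filter on low counts, quasi-likelihood test, Benjamini-Hochberg adjustment over all genes tested), and the interaction on all 18 libraries. DESeq2 1.42.0 and limma 3.58.1 in R 4.3.3 were alternatives, as were other filters, scalings and leaving out each library. The test was tried on simulated counts. Members, lists and the rule for named genes were chosen with earlier results of these data known. The rule takes all mitochondrial members, up to 10 called members in each direction of a comparison, the 2 nuclear members of each complex with the smallest p in a knockout comparison, the isoform families, Arntl, Cycs, Cyc1, Ppargc1a and Tfam, and up to 3 genes from each further list. Ndufs7, Ndufa7, Atp5a1, Atp5pb and mt-Rnr2 were named after their values were seen. The values of 1 gene that the rule names are not reported here.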

Additional observations from a re-analysis of the deposited data

Results flagged for a closer look

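Of 189 checks of a group's most extreme library among the named members, 11 found a library far from the others, where chance gives about 1 in 20. In knockout microglia, library 2 was highest for Atp5g1 (84.5 CPM, others 57.3 to 63.1), Ndufv1 (167 CPM, others 100.03 to 118) and Uqcrh (58.1 CPM, others 35.5 to 40.1). Library 5 was highest there for Atp5j2 (67.9 CPM, others 38.6 to 46.2). In control microglia, library 1 was highest for Cox4i1 (273.9 CPM, others 219.8 to 225), library 3 for Ndufv1 (125.1 CPM, others 81.5 to 84.2), and library 2 lowest for Sdhc (69.8 CPM, others 87.2 to 90.1). In control retina, library 4 was highest for Atp5j2 (104.3 CPM, others 76.9 to 79.5) and library 2 for Ndufa4l2 (4.79 CPM, others 0 to 0.573). In knockout retina, library 4 was highest for Ndufb1-ps (20.3 CPM, others 14.5 to 16.1) and library 5 lowest for mt-Nd4l (0.937 CPM, others 1.10 to 1.13).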

How the results depend on the processing

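The 3 retina calls changed most. Their number was 0 without a filter on low counts, 0 in the fit over all 18 libraries and 0 with the rod level as covariate. It was 0 with the replicate block and 0 to 3 when single libraries were left out. DESeq2 called 13 members among 1184 genes called, where the main fit called 255 genes. After the length and GC trend was removed, 22 members were called among 1397 genes called. The median of nuclear members in retina was -0.41 after that trend was removed and -0.28 to -0.20 when single libraries were left out, and the mitochondrial median turned to 0.13. The interaction gave 10 member calls by DESeq2, among 1074 genes called, where the main fit called 85 genes. With the trend removed it gave 21 member calls, among 1193 genes called, with a nuclear median of 0.61. Between fractions the nuclear median became -1.27 and Sdhb -0.24 with the trend removed, where all genes stood at -0.47. Uqcrh in knockout microglia ran from -0.026 (without knockout library 2) to 0.23, against 0.12 with all libraries. The causes were not tested. Same-numbered libraries correlated at -0.044 to 0.057 and differently numbered ones at -0.049 to 0.037. These are correlations of deviations from the means of few libraries, and cannot decide whether the numbers pair libraries. The replicate block gave 58 member calls between fractions and 0 in microglia and the interaction.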
